A study of Mus musculus with 2 samples.

Results

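The genes described here encode proteins of the small (40S) subunit of the cytosolic ribosome. They are the 28 parent genes on a list of small subunit proteins, 27 carrying Rps names and Fau, and pseudogenes were left out of the list. The list is a selection and not the complete protein set of the subunit. All 28 symbols matched 1 gene each among the 43346 genes in the deposited tables, and the genes lie on 14 chromosomes.

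RNA came from whole livers of newborn mice (postnatal day 0) of strain B6NCrl, and 13 pg of total RNA, named in the labels as 1 cell-equivalent, entered each library. The labels name the livers as those of pup 1 and pup 3, and both samples carry the same donor entry. The libraries followed a SmartSeq protocol, in which cDNA is amplified by PCR before sequencing, with added spike-in RNAs. Both form 1 group with no contrast, so levels are given per pup with the mean ± SD (n = 2), ratios of pup 3 over pup 1 are descriptions, and no test was made.

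Expected counts, which are estimated reads per gene, summed to 56959836 in pup 1 and 35973980 in pup 3. Of these, 54817565 and 34792898 were endogenous, so a gene at 0 counts could still stand at 0.0547 CPM in pup 1 or 0.0862 CPM in pup 3 (counts per 1000000 endogenous counts, for a limit of 3 counts and counting error only). All 8 hepatocyte markers were at 1 TPM or more in both libraries and summed to 17.2% and 14.2% of endogenous TPM, a level per transcript length scaled to a library total of 1000000. The 7 matched erythroid markers summed to 13.3% and 16.4%, the 6 granulocyte markers to 0.561% and 0.833%, and the 7 macrophage markers to 0.0771% and 0.126%, with C1qc at 0 counts in pup 1. In whole tissue, fewer cells of a type and less RNA per cell cannot be told apart.

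The small subunit binds mRNA, scans it for a start codon and pairs codons with tRNAs in its decoding centre. Its proteins sit on the 18S rRNA in a head, a body and a platform, and each subunit carries each of them once. Newborn liver still makes blood cells, and Rps19, Rps14, Rps24, Rps26 and Rps7 are among the genes whose loss of 1 copy is known to cause red cell failure in people. Ribosomal protein mRNAs of vertebrates begin with a cytosine followed by a run of pyrimidines, the TOP motif, through which mTOR signalling and the binding protein Larp1 set their translation.

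The bases around the annotated start of transcription are shown first because this motif is what ribosomal protein genes share by sequence. Of the 28 genes, 24 matched a RefSeq entry (GRCm38.p6). A window of 30 bases, 15 before and 15 from the start on, was read on the sense strand, and its longest unbroken run of C or T is in capitals. The windows printed are the 3 with the longest runs, those of Rps6 and Rps24 with runs of 10 and 9 bases, and that of Rps3a1.

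Fau: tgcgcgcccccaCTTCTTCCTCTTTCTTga
Rps10: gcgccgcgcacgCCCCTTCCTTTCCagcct
Rps18: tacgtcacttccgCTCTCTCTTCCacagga
Rps6: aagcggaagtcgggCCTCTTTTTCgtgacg
Rps24: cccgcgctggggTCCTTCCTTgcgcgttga
Rps3a1: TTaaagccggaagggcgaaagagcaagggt

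These windows lie at chr19:6057932-6057961 (plus strand) for Fau, chr17:27635230-27635259 (minus) for Rps10, chr17:33955651-33955680 (minus) for Rps18, chr4:86857353-86857382 (minus) for Rps6, chr14:24490663-24490692 (plus) for Rps24 and chr3:86142654-86142683 (minus) for Rps3a1. Fau had the longest run of the 24, at 16 bases, and Rps3a1 the shortest printed here, at 2. A run of at least 7 bases stood in 13 of the 24 windows (54.2%), in 19 of 34 matched windows of the large subunit list (55.9%) and in 21.3% of the 27025 genes in the table, where a gene with several starts counts by its longest run. The 13 genes with such a run had a median of 608 TPM and a median log2 ratio of -0.54, against 460 TPM and -0.68 for the 11 with shorter runs. A missing run says only that these letters are not in the window, and the annotated start can lie some bases from the one used in liver.

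All 28 genes were above 1 TPM in both livers, with 562 to 45584 expected counts per gene and library. Together they held 2.04% of endogenous TPM in pup 1 and 1.39% in pup 3 (1.71 ± 0.461%, SD, n = 2). As a share of endogenous counts, which weights long transcripts more, they held 0.925% and 0.659%. All but Rps21 ranked within the first 1000 endogenous features of both libraries.

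**Figure D1:**
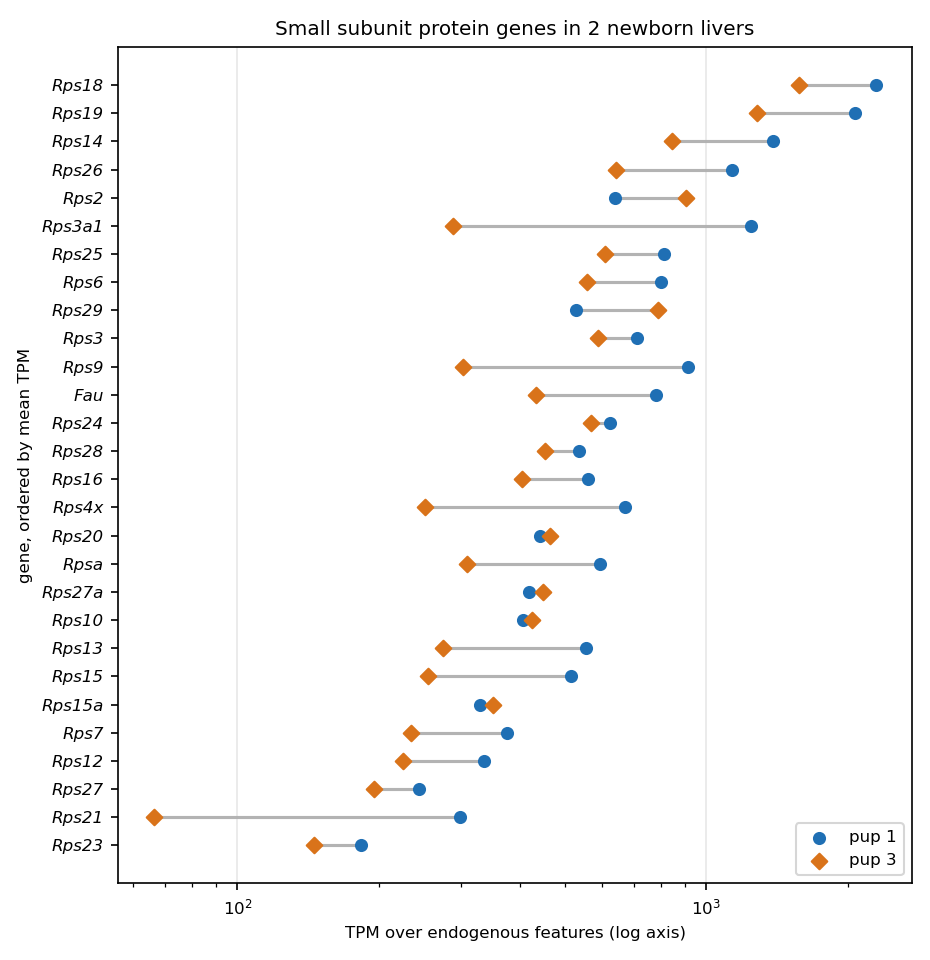
Level of each of the 28 genes in TPM over endogenous features (log axis), with a circle for pup 1, a diamond for pup 3 and a grey line joining them. Rps18 and Rps19 are the highest in both libraries, 22 genes have the diamond to the left of the circle, as 21 to 26 do over the 6 scalings tried, and the longest lines belong to Rps21 and Rps3a1.

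The highest levels were those of the head genes Rps18 and Rps19, while places 3 to 6 by mean TPM went to body and platform genes. Rps18, which binds near the tRNA sites of the head, was the highest of the list in both livers with 2298 TPM in pup 1 and 1578 in pup 3 (1938 ± 509), from 45462 and 21431 counts at chr17:33951999-33956001. Rps19, needed for 18S rRNA maturation, was next in both with 2076 and 1282 TPM (1679 ± 561) at chr7:24884371-24889806. They were 51st and 58th of all endogenous features in pup 1, and 75th and 89th in pup 3.

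Of the other head genes, Rps25, which encodes a protein close to the tRNA exit site, had 811 and 607 TPM. Rps29, a small zinc-binding protein, had 527 and 788 TPM (657 ± 185), and was higher in pup 3. Rps3, which lines the mRNA entry channel, had 713 and 586 TPM, Rps28 had 536 and 452, and Rps16, whose tail reaches the tRNA in the peptidyl site, had 559 and 405.

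In 3 head genes the libraries nearly coincided. Rps20 had 443 and 464 TPM (453 ± 15.2) and Rps10 had 407 and 424 (416 ± 11.7). Both proteins are ubiquitylated when ribosomes collide. Rps27a, made as a fusion of ubiquitin with the ribosomal protein, had 419 and 449 TPM (434 ± 21.3). Rps15 and Rps12 were the remaining head genes, at 515 and 255 TPM and at 335 and 226 TPM.

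In the body and platform, Rps14, a platform protein, led with 1389 and 846 TPM (1117 ± 384) at chr18:60747098-60778546. Rps26, which lies at the mRNA exit channel, had 1132 and 643 TPM (888 ± 346) at chr10:128624534-128626747. Rps2, at the mRNA entrance, had 639 and 904 TPM (771 ± 187) at chr17:24718116-24721929, so that it took place 12 among the 28 in pup 1 and place 3 in pup 3. Rps3a1, a platform protein, had 1244 TPM in pup 1 and 288 in pup 3 (766 ± 676) at chr3:86137940-86142702, which is place 4 among the 28 in pup 1 and place 20 in pup 3.

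Rps6, the substrate of the S6 kinases, had 800 and 557 TPM (678 ± 171). Rps9, which faces the mRNA entry, had 913 and 302 TPM (608 ± 432), and Fau, made as a fusion with the ubiquitin-like protein Fubi, had 782 and 433 (608 ± 247). Rps4x, encoded on the X chromosome, had 669 and 251 TPM (460 ± 296), and Rps24 had 623 and 568 (595 ± 39.2). Rpsa, also known as the laminin receptor precursor, had 593 and 308 TPM, and Rps13 had 554 and 275. Rps7 had 376 and 235 TPM, and Rps15a had 330 and 351 (340 ± 14.7).

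The lowest levels were also those of body and platform genes. Rps27, a zinc-binding protein, had 244 and 195 TPM (220 ± 34.7) at chr3:90212522-90213651. Rps21 had 298 TPM from 3667 counts in pup 1 and 66.5 TPM from 562 counts in pup 3 (182 ± 163) at chr2:180257377-180258445. Rps23, whose protein reaches into the decoding centre, had 183 and 146 TPM (164 ± 26.6) at chr13:90922958-90924950 and was the lowest on average. The low values of Rps27 and Rps23 are those of the parent genes alone, and near-identical copies took more reads than either, as given with the copies.

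Levels of genes whose proteins enter the subunit in equal number spanned 12.5-fold in pup 1 and 23.7-fold in pup 3, in TPM. Their coefficient of variation was 69.1% and 68.1%, and the medians were 576 and 428 TPM. In the order of mean TPM, 25 of the 27 neighbouring pairs did not differ by more than the larger of their SDs. The exceptions were Rps19 over Rps14, by 562 TPM against an SD of 561, and Rps24 over Rps28, by 102 TPM against 59.7. Both genes of a pair come from the same 2 libraries, so the SD includes any shift they share. A pair within its SD can still keep its order. Rps18 was above Rps19 in both libraries, while Rps2 and Rps3a1 changed places. The order in pup 1 and pup 3 gave a Spearman rho of 0.67 over the 28 genes, against 0.86 over the 47 genes of the large subunit list. These rho values describe genes that share 2 libraries and are not replicates. Mean TPM had a rho of 0.06 with the length of the main transcript, 0.21 with its GC content and -0.07 with the number of near-identical copies.

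Most of the 28 genes were lower in pup 3. On the log2(TPM + 1) scale, 22 were lower, where 50.7% of all 8120 genes with a mean count of at least 10 were lower, and 6 were higher, with 21 to 26 lower over the 6 scalings tried. Of the 22, 12 were lower by at least 1.5-fold, where 40.3% of all genes were, and 0 of the 28 were higher by at least 1.5-fold, against 38.4% of all genes. Over the scalings these counts ran from 9 to 18 and from 0 to 2. The remaining 16 stayed within 1.5-fold, as did 21.3% of all genes. The median log2 ratio of the 28 was -0.53, with 0.58 as the highest and -2.15 as the lowest value, and that of all 8120 genes was -0.04 (quartiles -2.17 and 1.96).

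The background moved little for well-counted genes. All 28 genes had a mean of at least 1000 counts, and among the 4693 genes that did, 52.4% were lower in pup 3, 40.7% lower by at least 1.5-fold, 35.2% higher by as much and 24% within 1.5-fold, with a median of -0.11. With no filter, 54% of 10888 genes were lower, 30.5% lower and 29.2% higher by at least 1.5-fold and 40.3% within it. The share of the 28 genes at least 1.5-fold lower was 42.9%, near that of all genes, on the endogenous TPM scale. With TMM or DESeq2 factors it was 64.3%, against 43.6% and 43.5% of all genes, and with spike-in totals it was 32.1%, against 37.6%. The hepatocyte sum was lower and the erythroid, granulocyte and macrophage sums were higher in pup 3 on the TPM scale, as given above, but their genes did not all go one way. Of the hepatocyte markers 4 of 8 were lower (3 to 6 over the 6 scalings) and of the erythroid markers 2 of 7 (1 to 5). Of the granulocyte markers 3 of 6 were lower (2 to 3) and of the macrophage markers 1 of 7 under every scaling. Of all genes with a mean count of at least 10, 50.7% were lower (47.7% to 55.0%). The part of these cell types in the ratios was not tested.

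**Figure D2:**
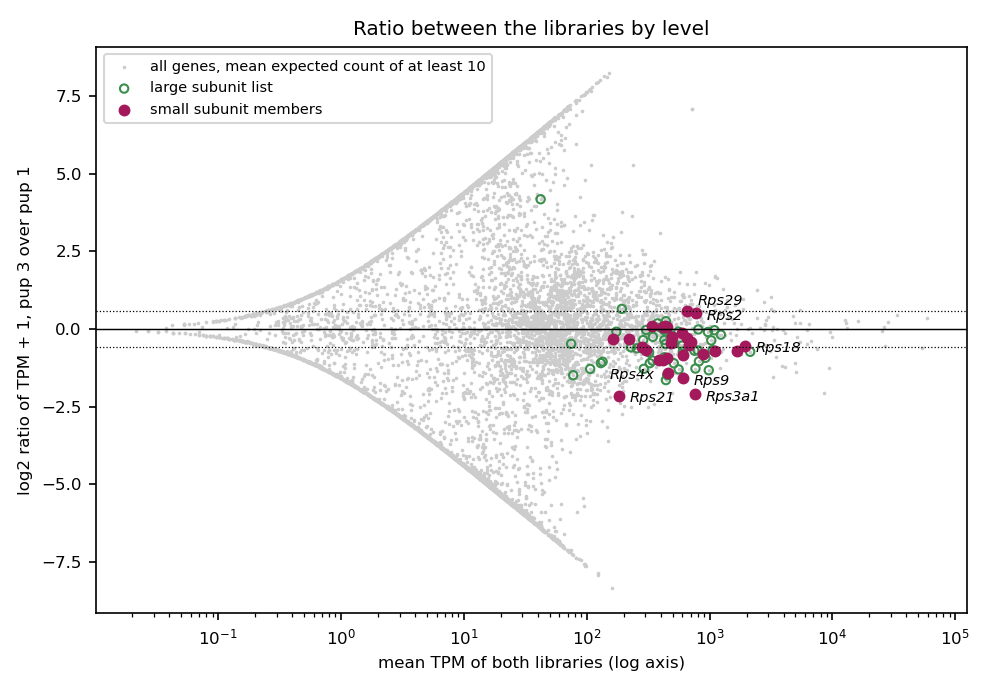
Log2 ratio of TPM + 1, pup 3 over pup 1, against mean TPM (log axis) for genes averaging at least 10 expected counts (grey), the large subunit list (open circles) and the 28 genes (filled circles), with dotted lines at 1.5-fold. The filled circles lie between -2.15 and 0.58, with Rps21 and Rps3a1 lowest and Rps29 and Rps2 highest.

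Rps21 and Rps3a1 differed most, by 4.42-fold and 4.31-fold, from 3667 against 562 and 45584 against 7238 counts. Rps9 (25068 and 5752 counts) was 3.02-fold and Rps4x (24436 and 6286 counts) 2.66-fold lower in pup 3. With Rps15 at 2.02-fold and Rps13 at 2.01-fold, 6 genes were lower by at least 2-fold. The counts are not scaled for library depth, which was 54817565 against 34792898 endogenous counts, while the folds are ratios of TPM. The part of RNA lost from the small input in these folds was not tested. These genes lie on chromosomes 2, 3, 7, 10 and X, with Rps9 and Rps13 both on 7.

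At the other end, Rps29 was 1.49-fold (6399 and 6566 counts) and Rps2 1.41-fold (22966 and 21137 counts) higher in pup 3. The 4 ratios closest to 0 on this scale were those of Rps10 (log2 0.06), Rps20 (0.07), Rps15a (0.09) and Rps27a (0.10). Together with Rps24 (-0.13), these were the genes with an SD under 10% of the mean. Ratios had a rho of -0.00 with mean TPM, -0.07 with length and -0.07 with GC content over the 28 genes.

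The direction of the smallest ratios depended on scaling. Across endogenous TPM, edgeR's TMM factors, DESeq2's size factors, spike-in totals and the 2 narrower totals (protein-coding genes, and features without globin, mitochondrially encoded and tRNA features), 21 genes were lower in pup 3 under every scaling, and Rps2 and Rps29 were higher under every one. Rps10, Rps15a, Rps20 and Rps27a turned lower under TMM and DESeq2, which shift all values by -0.26, and Rps24 turned higher (0.07) under spike-in totals, which shift them by 0.20. Over the 6 scalings the median of the 28 genes ran from -0.79 to -0.33 and that of all 8120 genes from -0.26 to 0.14.

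By place in the subunit, 14 of 16 body and platform genes were lower in pup 3 (13 to 15 over the scalings), 10 of them by at least 1.5-fold (8 to 12), with a median log2 ratio of -0.77. Of the 12 head genes, 8 were lower (8 to 11), 2 of them by at least 1.5-fold (Rps19 and Rps15; 1 to 6 over the scalings), with a median of -0.35. Of all genes, 50.7% were lower (47.7% to 55.0% over the scalings), and 40.3% were lower by at least 1.5-fold (37.6% to 43.6%). The median level of the head genes was 531 TPM in pup 1 and 458 in pup 3, and that of the body and platform genes was 631 and 305. Of the 13 proteins with counterparts in bacteria, 9 were lower (9 to 11, median -0.46), and of the 15 restricted to archaea and eukaryotes or to eukaryotes, 13 were (12 to 15, median -0.57). Both ways of dividing the genes are descriptions, and the difference between the groups was not tested.

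Ribosomal protein genes have left many processed copies in the mouse genome, and reads from a copy and its parent can be alike. The main transcript of each gene was compared with all GENCODE M21 transcripts by BLAST, and 114 copies with at least 95% identity over at least 80% of the shorter sequence were found for 23 of the 28 genes. For Rps3, Rps9, Rps20, Rps21 and Rps29 none was found within these limits. The deposited posterior SD of the count was 42.44 in pup 1 and 41.20 in pup 3 for Rps29, but 0 in both for Rps3, Rps9 and Rps20. Sharing of Rps29 reads with sequences outside the search was not tested. Of the 114, 104 are annotated as processed pseudogenes, 6 as transcribed processed pseudogenes and 4 as protein coding, and 7 were identical to the parent over the aligned length.

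The copies took 4238 TPM in pup 1 and 2993 in pup 3, which is 17.2% and 17.7% of the copies and the 28 genes together (10.8% and 11.3% by counts). In both libraries 27 copies reached 1 TPM, and 72 reached it in neither. The top 4 copies held 73.8% and 70.5% of all TPM given to copies. They were Rps27rt, Rps23-ps1, Rps6-ps4 and Gm10443.

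Rps27rt, an annotated protein-coding retrogene of Rps27 at chr9:114982366-114982739, had 1040 and 740 TPM, which is 4.26 and 3.79 times the level of Rps27. It matches the main Rps27 transcript at 100% over 341 bases. The posterior SD of the count that the authors deposited was 141.70 for Rps27 and 141.70 for Rps27rt in pup 1, and 92.25 for both in pup 3. For Rps27 this SD was 8.91% and 10.6% of the count, the highest of the 28 genes, while for 19 genes it was under 1% in both libraries. The deposited tables give Rps27 a length of 255 nt, where GENCODE M21 has 345 nt for the same transcript.

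Rps23-ps1, a processed pseudogene at chr3:37714740-37715164, had 977 and 691 TPM, or 5.33 and 4.75 times the level of Rps23. All 425 bases of it match Rps23. Rps6-ps4 (chr2:75191073-75191822) matches Rps6 over 750 bases and had 576 and 326 TPM, below its parent in both libraries. Gm10443 (chr6:86334031-86334240), a copy of Rps28 of 210 nt, had 535 and 354 TPM from 2481 and 1127 counts. With a sequence this short, few reads give a high TPM.

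Some copies differ from the parent by bases that a read can carry, and their sequences are printed to show how much there is to tell them apart. Rps12l1, Gm6472, Gm8430 and Gm9843 fall outside the naming rule, Gm10443 enters it only through the list of copies, which was drawn up after seeing the data, and all 5 were picked with their values known. Rps12l1 (chr7:56014016-56014414) has no mismatch over 399 aligned bases to Rps12-201, the main Rps12 transcript, as given in GENCODE M21. That model has 490 nt, where the deposited tables give 476 nt. Rps12l1 lacks 15 bases of the M21 model. Whether the Rps12 sequence used by the authors holds them, so that reads could be told apart there, is not known. They are positions 202 to 216 of the M21 transcript, in capitals below.

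Rps12: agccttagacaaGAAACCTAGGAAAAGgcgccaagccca
Rps12l1: agccttagacaagcgccaagccca

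Rps12l1 had 215 TPM in pup 1 and 282 in pup 3, against 335 and 226 for Rps12, and so stood above its parent in pup 3 only. Gm6472 (chrX:152909505-152910155) differs from Rps7 at 3 of 582 aligned bases, and Gm8430 (chr6:122456904-122457374) from Rps27a at 1 of 471. The stretches of 40 bases that hold most of these differences, with the differing bases in capitals, are the following.

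Rps7: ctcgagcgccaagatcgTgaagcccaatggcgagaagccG
Gm6472: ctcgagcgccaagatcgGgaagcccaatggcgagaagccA
Rps27a: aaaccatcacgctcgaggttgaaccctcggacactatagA
Gm8430: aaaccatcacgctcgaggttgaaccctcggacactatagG

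Gm6472 had 193 and 140 TPM against 376 and 235 for Rps7. Gm8430 had 114 and 108 TPM against 419 and 449 for Rps27a. Rps13-ps2, identical to Rps13 over 453 bases, had 231 and 108 TPM, Gm9843, identical to Fau over 402 bases, had 85.8 and 47.5, and Rps16-ps2, identical to Rps16 over 441 bases, had 49.1 and 33.9. On the endogenous TPM scale, the log2 ratio was -1.09 for Rps13-ps2 and -1.01 for its parent, -0.84 for Gm9843 and -0.85 for Fau, and -0.52 for Rps16-ps2 and -0.46 for Rps16. It was -0.46 for Gm6472 against -0.68 for Rps7, and Gm8430 (-0.08) and Rps27a (0.10) had opposite signs, as did Rps12l1 (0.39) and Rps12 (-0.57). The posterior SD of the Gm8430 count was 124.71 on 1774 counts in pup 1 and 93.22 on 1147 in pup 3. For Rps12l1 it was 148.36 on 2697 and 101.56 on 2424. Whether the signs differ beyond the error of dividing shared reads was not tested.

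**Figure D3:**
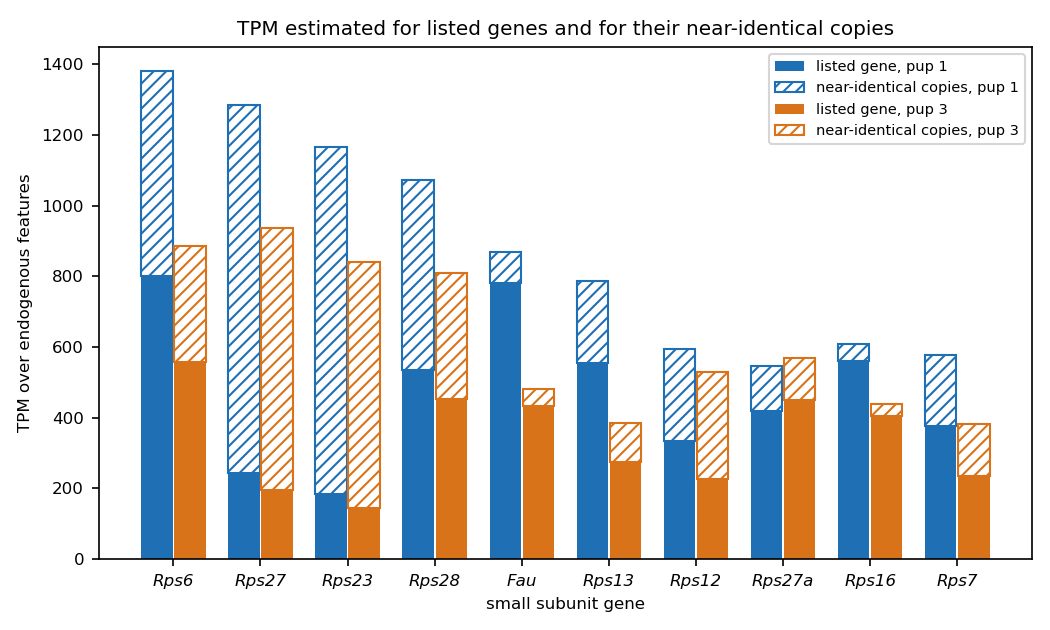
TPM of the listed gene (solid) and of its near-identical copies (hatched) for the 10 genes whose copies held at least 5% of the sum in both libraries, stacked, with pup 1 in blue and pup 3 in orange. For Rps27 and Rps23 the hatched part is larger than the solid part in both libraries.

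For Rps27 the copies held 81.0% and 79.1% of the sum of gene and copies, and for Rps23 84.3% and 82.7%. No other gene had more in its copies than in itself in both libraries, and Rps12 had 43.7% and 57.4% in copies. With copies added, Rps6 (1132 ± 350 TPM), Rps27 (1109 ± 247) and Rps23 (1003 ± 230) moved to places 3, 5 and 6 of the 28 by mean, and Rps28 (940 ± 187) to 7. The span from highest to lowest was then 7.77-fold in pup 1 and 23.9-fold in pup 3, where Rps21, for which no copy was found, stayed lowest. Adding copies left 22 sums lower in pup 3, 13 of them by at least 1.5-fold.

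Transcript shares were close in most genes. The tables list 110 transcripts for the 28 genes, 9 genes have 1 listed transcript, and 14 have 2 or more that reach 5% of the gene's TPM in either library. The largest difference between the libraries was under 5 points in 9 of these 14, 5 to 10 points in Rps16 and Rps19, and over 10 points in Fau, Rps2 and Rps9.

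Among the stable ones, Rps24-201 and Rps24-202, both protein coding, held 78.5% and 21.5% of Rps24 in pup 1 and 79.6% and 20.4% in pup 3. Rps18-201 held 58.2% and 58.1% of Rps18, and Rps18-209, annotated as a processed transcript with no coding sequence, 41.5% in both. Rps14-205 and Rps14-201 held 53.1% and 46.6% in pup 1 and 51.5% and 47.9% in pup 3. The share of Rps10-203 was 79.8% and 79.7%, and that of Rps27a-201 was 86.0% in both. In Rps20 the transcript with 94.1% and 94.0% was Rps20-201, which GENCODE M21 labels a retained intron. By expected counts, which weight long transcripts more, its share was 69.0% and 70.4%.

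In Fau, the protein-coding transcripts Fau-201 and Fau-202 had 97.3% and 2.45% in pup 1, and 63.3% and 36.7% in pup 3. Fau-201 had 761 and 274 TPM and Fau-202 had 19.2 and 159, so of these only Fau-201 was lower in pup 3. In Rps2, the retained-intron transcript Rps2-203 had 0.16% in pup 1 and 22.6% in pup 3, from 22.7 and 3144 counts. Rps2-203 had 1.01 and 204 TPM. The coding transcript Rps2-208 had 526 and 677 TPM, and was higher in pup 3 like the gene. Rps2-201, also coding, and the retained-intron transcript Rps2-205 had 8.76% and 7.52% in pup 1. Rps2-201 had 56.0 TPM in pup 1, and both were listed at 0 in pup 3. The ratios of Rps2 under the scalings are for all its transcripts together, not for the coding ones alone. In Rps9, Rps9-210, annotated as a target of nonsense-mediated decay, had 4.63% and 17.0%, while its TPM was 42.3 and 51.4. Rps9-201 had 866 TPM in pup 1 and 250 in pup 3.

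In Rps16 the retained-intron transcript Rps16-203 had 5.98% and 13.8%. In Rps19, Rps19-210 had 54.8% and 53.7%, the retained-intron transcript Rps19-206 34.9% and 30.3%, and Rps19-202 0% and 6.46%. The deposited shares are estimates, since reads that fit several transcripts of a gene are divided among them.

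**Figure D4:**
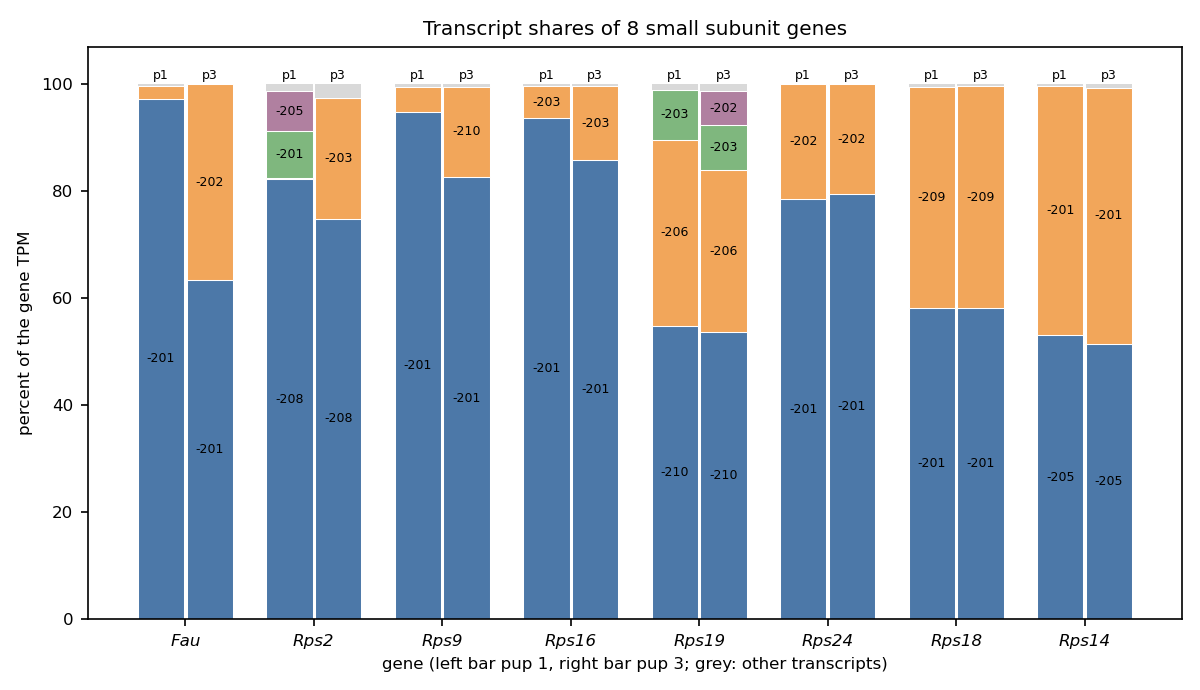
Percent of the gene's TPM by transcript in 8 of the genes, with pup 1 as the left and pup 3 as the right bar and the transcript number printed in each segment. Fau, Rps2, Rps9 and Rps16 differ between bars, while Rps24, Rps18 and Rps14 are within 2 points.

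Small nucleolar RNAs, which guide the modification of rRNA, are often encoded in introns of these genes. The labels give a size range above 200 nt. Of the 14 snoRNA genes inside 8 of the 28 genes on the same strand, 12 had 0 counts in both libraries. Some of the 12, of 68 to 87 nt, are shorter than the 99 nt by which effective length lies under the listed length. For those a count of 0 says nothing about the RNA. The exceptions were Snora33 within Rps12 (20 and 0 counts) and Snora64 within Rps2 (0 and 73.5 counts), against 5271 and 2440 counts for Rps12 and 22966 and 21137 for Rps2. Of the 28 genes, 7 overlap a gene on the opposite strand, and the most counted of these neighbours was Trappc4 beside Rps25 (3044 and 1329 counts). Snora33, Snora64 and Trappc4 lie outside the naming rule and were picked with their values known. Strand use in counting is not given in these sources, so reads of overlapping genes cannot be told apart.

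Related genes outside the list had unlike levels. Rack1, a scaffold protein on the head of the subunit that is not on the list, had 279 TPM in pup 1 and 662 in pup 3, a log2 ratio of 1.24. Rps27l, a paralog of Rps27, had 467 and 438 TPM, about the level of the middle of the list. Rps4l, a paralog of Rps4x, had 1155 counts (32.8 TPM) in pup 1 and 0 counts in pup 3. Ubb, which encodes ubiquitin, had 1765 and 1528 TPM and stood above Rps27a and Fau in both libraries.

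The 47 genes of the large subunit list held 3.02% and 2.02% of endogenous TPM (2.52 ± 0.702%). The large over small subunit sum was 1.48 in pup 1 and 1.46 in pup 3, and the sum in pup 3 was 0.671 times that in pup 1 for the large and 0.680 times for the small subunit. Of the 47 genes, 42 were lower in pup 3 (34 to 45 over the scalings), 24 by at least 1.5-fold (16 to 31), and 2 were higher by at least 1.5-fold (1 to 2), with a median of -0.59. They were led by Rpl41 (2676 and 1606 TPM), Rplp0 (1316 and 1157), Rpl32 (1112 and 1080) and Rpl4 (1305 and 812).

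Factors that build the small subunit in the nucleolus were far lower, with a median over the list of 12.9 TPM. Of 30 matched assembly factors, 8 were at 1 TPM or more in both libraries, 11 in 1 and 11 in neither, and they summed to 0.0763% and 0.0828%. Of the 21 with a mean of at least 10 counts, 14 were lower in pup 3 under every scaling, 9 by at least 1.5-fold, and 6 were higher by as much, with a median of -0.32. Emg1, an rRNA methyltransferase, had 127 and 108 TPM, and Nop56, a core protein of the particles that methylate rRNA, had 37.5 and 223. Rcl1 had 39.2 and 137 TPM, and Tbl3 had 185 TPM in pup 3 and 0 counts in pup 1.

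The small subunit of the mitochondrial ribosome, built from a separate set of nuclear genes, stood lower, with a median over its genes of 66.3 TPM against 488 for the 28 cytosolic genes. Of 30 genes, 17 were at 1 TPM or more in both, 8 in 1 and 5 in neither, where all 28 cytosolic genes were in both. They held 0.168% and 0.202%, and of the 25 with a mean of at least 10 counts 15 were lower in pup 3 (13 to 15), with a median of -0.20. Mrps18c had 150 and 125 TPM and Dap3 67.9 and 158, while Mrps21 and Mrps15 had 278 and 240 TPM in pup 3 and 0 counts in pup 1. Of 13 regulators of ribosomal protein mRNA translation and transcription, 5 were at 1 TPM or more in both libraries, 5 in 1 and 3 in neither, and of the 10 counted at a mean of 10 or more, 3 were lower in pup 3 (3 to 4, median 1.72). Eif4ebp1, a translation repressor under mTOR, had 65.4 and 73.9 TPM, and Rheb, the mTOR activator, 33.5 and 63.4. Rps6kb1, the kinase of Rps6, had 80.3 TPM in pup 1 and 0 counts in pup 3, and Myc had 0 counts in pup 1 and 68.6 TPM in pup 3. For every gene at 0 counts in 1 library, RNA absent from the liver and RNA lost from 13 pg of input cannot be told apart.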

How the data were processed

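Total RNA from 2 newborn mouse livers, 1 library each, was analysed from the deposited gene and transcript tables. Per the deposited notes, reads were aligned to transcripts of GENCODE M4 on mm10. Aligner, quantifier and strand use: not given in the sources used here.

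The authors deposited expected counts (estimated reads, shared reads divided among features), TPM per effective length, a posterior mean TPM and a posterior SD of the count (both treated as scores), and each transcript's percent of its gene. Effective length lies 99 nt under the listed length, so short copies gain TPM. The tables list 69691 features. Names, types and coordinates come from GENCODE M21 (GRCm38, which is mm10; 98.0% of gene identifiers matched), and M21 transcripts can differ in length from those the authors used.

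Here spike-ins were removed and TPM rescaled to 1000000. Ratios use log2(TPM + 1), a scale that shrinks differences between low values. A count of 0 allows up to 3 counts, and PCR reads without molecular identifiers make this counting error only. Counts and medians of the 28 genes stand beside those of genes with a mean count of at least 10. With 1 group of 2 libraries no test was run, and the labels do not separate animal from technical spread. Expected counts were rounded for the scaling factors of edgeR 4.0.16 (TMM) and DESeq2 1.42.0, under R 4.3.3. Copies were found with BLAST 2.17.0 among transcripts of at least 200 nt (e-value 1e-20), and sequences around starts come from RefSeq (GRCm38.p6). The ratio step was tested on simulated counts.

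The 28 genes and all lists were chosen with earlier results of these data known. The naming rule took all 28 genes, the 4 highest genes of each other list and of named pseudogenes, and all ubiquitin and paralog genes, some of which are not reported here. Alternatives were another pseudocount, CPM, posterior means, other scalings, spike-ins kept, adding pseudogenes and leaving out a library. Copies by BLAST, with their identity limits, and the genes without copies were added after seeing the data.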

Additional observations from a re-analysis of the deposited data

How the results depend on the processing

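The median log2 ratio of the 28 genes was -0.42 with CPM of expected counts, -0.79 with TMM factors, -0.79 with DESeq2 size factors, -0.33 with spike-in totals and -0.28 over the 5 genes that have no copy at 1 TPM or more, the last chosen after seeing the data. Under these scalings, 26 genes were lower with TMM or DESeq2 (18 by at least 1.5-fold) and 21 with spike-in totals (9 by at least 1.5-fold). Of all genes with a mean count of at least 10, 55.0% were lower with TMM (43.6% by at least 1.5-fold) and 54.9% with DESeq2 (43.5%). With spike-in totals 47.7% of all genes were lower (37.6% by at least 1.5-fold, against 32.1% of the 28). The summed share of the 28 genes was 0.792% by CPM of expected counts. Leaving out each library gave a share of 1.39 to 2.04% and a span from highest to lowest of 12.5 to 23.7-fold. At 90% identity 203 copies were found and at 98% 54, while their summed TPM in pup 1 was 4248 and 3956. Expected counts in place of TPM were tried for the 14 transcript shares of Fau, Rps2, Rps9, Rps16 and Rps19. Of these, 4 moved by more than the SD of the 2 libraries. They moved to 17.0% for Rps19-203, 27.5% for Rps19-206, 49.1% for Rps19-210 and 84.2% for Rps2-208. Shares of the other genes were left out of this comparison. With posterior mean TPM, the levels of all 28 genes moved by less than their SD. Leaving out a library cannot test a level here, since with 2 libraries it always moves a mean by less than the SD. The cause of these moves was not tested. No paired analysis was possible because there is 1 group and no contrast. With 2 libraries, each SD rests on a single difference, the 562 counts of Rps21 in pup 3 are the fewest of the 28 genes, and Rps27 has the widest posterior SD of the 28 as a percent of its count.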
